A study of Mus musculus with 4 samples.

Results

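Chemokines are small secreted proteins that direct the migration of white blood cells, and chemokine receptors are the G protein-coupled receptors that read them. The members described here are the 54 genes, of 21827 in the table, whose symbols begin with Ccl, Ccr, Cxcl, Cxcr or Xcr followed by a digit, or with Cx3c. They comprise 34 ligand genes and 20 receptor genes. Membership followed the symbol alone, but the group was chosen with earlier results of these data known. Liver RNA was compared between untreated male and untreated female CD-1 mice, an outbred stock, at 8 weeks of age. The 12 livers of each sex formed 2 pools of 6, and the 4 pools gave poly-A-enriched libraries that keep strand. Because the table analysed here lists 1 value per gene and sex, the spread between pools could not be computed and levels carry no SD.

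Chemokines are named for the spacing of their first cysteines, which gives the CC, CXC, CX3C and XC families, and most receptors are named after the family they bind. Several ligands are made by resident cells in the resting state, whereas others are switched on by interferon or by inflammatory cytokines. In the liver, hepatocytes, sinusoidal endothelial cells, stellate cells and Kupffer cells (the resident macrophages) release ligands, and the receptors are carried mainly by the immune cells of the sinusoids.

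Levels are the authors' log2 RPKM (reads scaled to transcript length and library size), which allow comparison between genes. Ratios are the authors' normalized ratios of male over female liver. A gene was called different at the authors' adjusted p under 0.05. If the value the authors added to every gene is taken as 1 read, male levels imply a depth of 11241814 reads and female levels 14719686, or 1.31 times as many. From these reads a 95% interval was taken (exact, after Clopper and Pearson), called the counting interval. It is the interval of the ratio of implied reads per depth, which is scaled otherwise than the authors' normalized ratio. For Cxcl12 the authors' ratio of 0.817 fell just outside its counting interval, 0.818 to 0.883. The counting interval covers counting error alone and not differences between mice or pools. Genes with no implied read in either sex lie at the floor of the scale and were not compared.

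Of the 54 members, 27 were compared, 20 lay at the floor and 7 had implied reads in a single sex with no ratio given. Of all 21827 genes, 13763 were compared, 6590 lay at the floor and 1460 had implied reads in a single sex. In the authors' deposited table, 9 of the 27 compared members differed between the sexes, 6 higher in female and 3 higher in male liver. Over all 13763 compared genes, 17.4% were called, 10.2% higher in female and 7.21% higher in male liver. The female-higher members were the ligands Cxcl9, Cxcl11, Cxcl13 and Ccl6 and the receptors Cxcr6 and Ccr1. The male-higher members were the ligand Cxcl14 and the receptors Cxcr4 and Cxcr7. The median log2 ratio of the 27 members was -0.12, also with Ccr1 set to the bound given with it, against -0.02 over all compared genes. Among the 12 members whose log2 RPKM reached 1 in a sex, 5 were called, against 17.2% of all compared genes at that level. Among the 15 compared members below it, 4 were called, against 18% of all such genes. At an adjusted p under 0.01, 3 members were female-higher and 1 male-higher, against 6.05% and 4.16% of all compared genes.

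**Figure D1:**
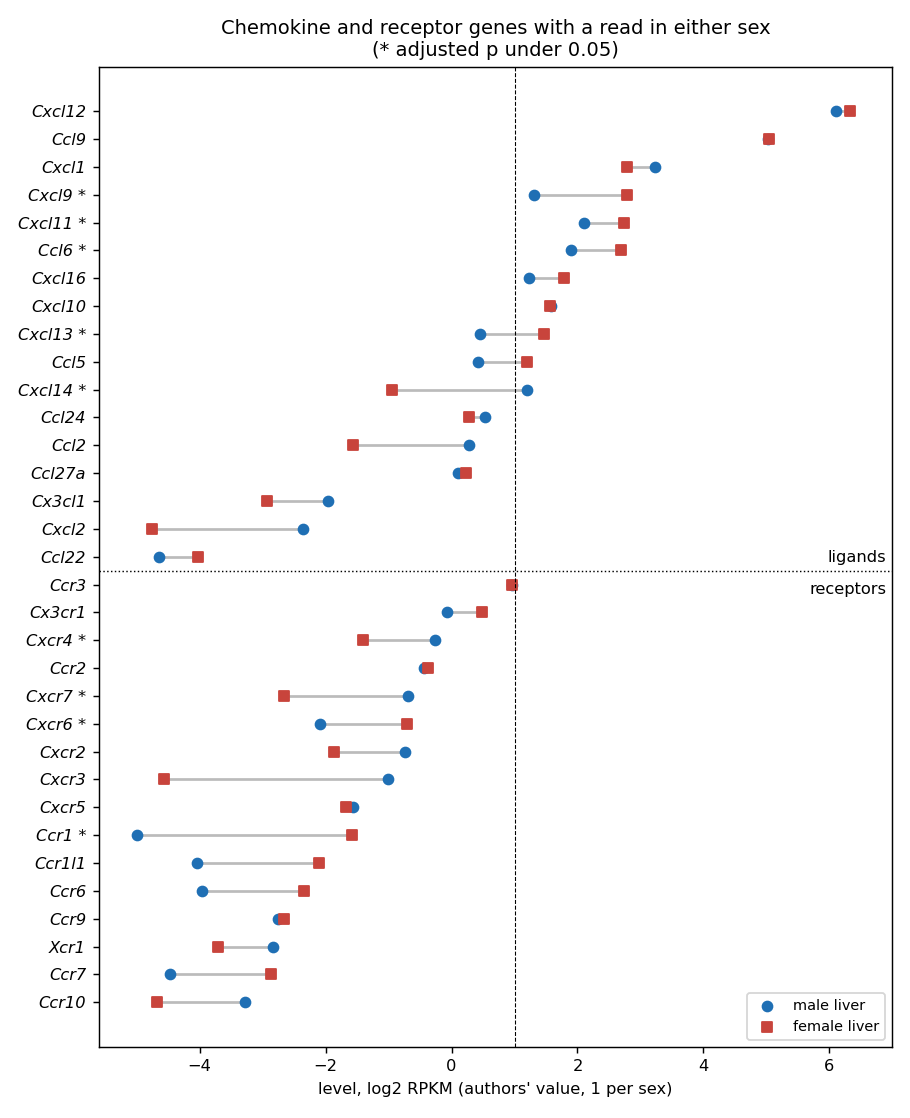
Levels (log2 RPKM, horizontal axis) of 33 members with an implied read in either sex, with circles for male and squares for female liver, ligands above and receptors below the dotted line, and asterisks on the 9 called members. The dashed line marks a log2 RPKM of 1; Cxcl12 is the highest ligand at 6.10 and 6.33, and the plotted receptors all lie below the line.

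Ligand levels spanned a wide range. Cxcl12, which binds Cxcr4 and Cxcr7 and retains blood-forming and immune cells in tissue, had the highest log2 RPKM of all members in both sexes, 6.10 in male and 6.33 in female liver. Its level stood at percentile 96.1 of all genes in the male and 96.7 in the female column. Ccl9, a rodent ligand of Ccr1, was next in both sexes, with 5.02 in male and 5.05 in female liver. Neither was called in the authors' deposited table (adjusted p = 0.122 for Cxcl12 and 0.937 for Ccl9). For Ccl9 the counting interval of the male over female ratio ran from 0.907 to 1.06.

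The ligands of Cxcr3, Cxcl9, Cxcl10 and Cxcl11, are induced by interferon gamma and attract activated T cells and natural killer cells. They lie side by side within 41.9 kb of chromosome 5 (92750357 to 92792303, mm9). The bases before the start of Cxcl9 and Cxcl10 are shown because Cxcl9 was called and its neighbour Cxcl10 was not, together with those of Ccl6, Ccl9 and Cxcl14, described further on. Each line gives the 250 bases before the annotated start, 5′ to 3′ on the gene's own strand, from RefSeq (GRCm38.p6). All 5 genes lie on the minus strand, Cxcl9 at chr5:92328080-92328329, Cxcl10 at chr5:92348890-92349139, Ccl6 at chr11:83593088-83593337, Ccl9 at chr11:83578637-83578886 and Cxcl14 at chr13:56296552-56296801. Capitals mark matches, on either strand, to the interferon gamma activated site (GAS, TTCNNNGAA), the interferon-stimulated response element (ISRE, a pair of GAAA half-sites 2 bases apart), the NF-kB consensus and the AP-1 site (TGANTCA).
Cxcl9: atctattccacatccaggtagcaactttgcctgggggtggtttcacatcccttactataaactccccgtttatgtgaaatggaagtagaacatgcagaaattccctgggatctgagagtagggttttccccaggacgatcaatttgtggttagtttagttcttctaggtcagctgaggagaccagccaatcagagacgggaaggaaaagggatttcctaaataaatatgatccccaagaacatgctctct
Cxcl10: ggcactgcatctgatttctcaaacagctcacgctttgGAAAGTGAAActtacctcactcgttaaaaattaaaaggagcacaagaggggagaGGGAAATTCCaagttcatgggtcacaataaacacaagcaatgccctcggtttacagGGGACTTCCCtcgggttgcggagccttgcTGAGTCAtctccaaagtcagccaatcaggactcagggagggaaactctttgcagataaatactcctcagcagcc
Ccl6: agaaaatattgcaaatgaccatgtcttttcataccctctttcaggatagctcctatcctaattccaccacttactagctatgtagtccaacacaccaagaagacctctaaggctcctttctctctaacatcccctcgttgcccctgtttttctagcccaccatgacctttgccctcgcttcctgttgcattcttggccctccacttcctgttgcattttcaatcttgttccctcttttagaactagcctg
Ccl9: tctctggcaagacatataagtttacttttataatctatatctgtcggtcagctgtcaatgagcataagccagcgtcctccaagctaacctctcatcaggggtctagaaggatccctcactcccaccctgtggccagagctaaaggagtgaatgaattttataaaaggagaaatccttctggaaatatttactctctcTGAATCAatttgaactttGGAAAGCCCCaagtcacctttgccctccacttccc
Cxcl14: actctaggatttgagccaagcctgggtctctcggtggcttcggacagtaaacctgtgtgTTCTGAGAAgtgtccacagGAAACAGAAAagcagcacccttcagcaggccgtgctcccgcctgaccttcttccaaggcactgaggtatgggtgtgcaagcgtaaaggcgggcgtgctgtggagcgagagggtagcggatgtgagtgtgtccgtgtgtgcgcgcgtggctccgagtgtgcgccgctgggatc

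Cxcl10 held an ISRE match from base -213 to -204, NF-kB matches from -159 to -150 and from -103 to -94, and an AP-1 match from -74 to -68. Cxcl9 and Ccl6 held none of the 4 motifs in this window. Ccl9 held an AP-1 match and an NF-kB match, and Cxcl14 a GAS match from -191 to -183 and an ISRE match from -172 to -163. Among 27025 promoters, 7.18% held the GAS, 3.04% the ISRE, 3.75% the NF-kB and 6.87% the AP-1 letters in the same window. Of the 20 compared members with an entry, 1 held the GAS, 2 the ISRE, 4 the NF-kB and 3 the AP-1 letters. None of the matches shown overlapped another motif. A match is a string of letters and was not shown to be a bound site.

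Cxcl9 had the smallest adjusted p of all members. Its log2 RPKM was 1.31 in male and 2.78 in female liver, a 3.06-fold excess of female over male by the authors' deposited table (adjusted p = 9.79e-11). This level rests on 79 implied reads in male and 291 in female liver, with a counting interval of 2.19-fold to 3.65-fold. Cxcl11 had a log2 RPKM of 2.11 in male and 2.73 in female liver. Female liver exceeded male liver 1.62-fold in the authors' deposited table (adjusted p = 0.0107). Between them on the chromosome, Cxcl10 had nearly equal values, 1.58 in male and 1.57 in female liver. Its log2 ratio was -0.11 in the authors' deposited table (adjusted p = 0.545, not called) and 0.01 by plain subtraction of the levels, and its 36 and 47 implied reads allow a male over female ratio between 0.631 and 1.58. Female liver was thus the higher sex for the outer genes of the trio, and the middle gene did not pass the test. The difference between the neighbours' ratios was not tested. In whole liver, fewer cells of a type and less RNA per cell cannot be told apart, here or in the results that follow. Cxcl10 and Cxcl11 lie on the strand opposite to Art3, which overlaps them and was not called (adjusted p = 0.539 in the authors' deposited table).

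**Figure D2:**
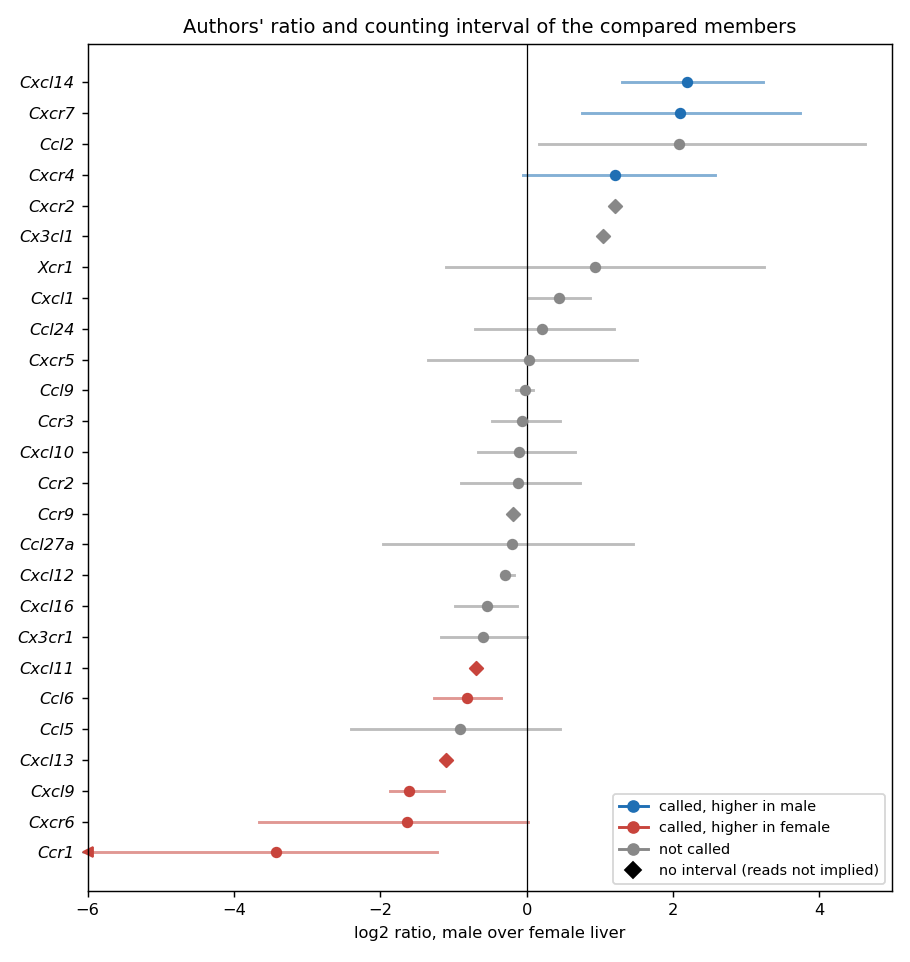
Authors' log2 ratio of male over female liver (points) for 26 compared members, with the counting interval of the implied reads (lines) where reads were implied; diamonds have none. Cxcl9, Ccl6 and Ccr1 lie below 0 and Cxcl14 and Cxcr7 above 0 with their whole interval, while the intervals of the called Cxcr4 and Cxcr6 reach across 0; the interval of Ccr1 is open to the left.

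Of 13 inflammatory CC ligands, which recruit monocytes, eosinophils and T cells, 5 were compared and 8 lay at the floor. Ccl6, a macrophage-expressed ligand of Ccr1 found in rodents (chromosome 11, 83401388 to 83406589, mm9), had a log2 RPKM of 1.89 in male and 2.68 in female liver. Female liver exceeded male liver 1.75-fold in the authors' deposited table (adjusted p = 0.00755), and its 59 and 135 implied reads allow 1.28-fold to 2.42-fold. Its neighbour Ccl9, at a far higher level, did not pass the test. Ccl5, a ligand of Ccr1 that attracts T cells and monocytes, had 0.42 in male and 1.20 in female liver (adjusted p = 0.307 in the authors' deposited table, 7 and 17 implied reads). Ccl24, an eosinophil attractant that binds Ccr3, had 0.54 in male and 0.28 in female liver (adjusted p = 0.884 in the authors' deposited table).

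Ccl2, the main attractant of Ccr2-bearing monocytes, had a log2 RPKM of 0.28 in male and -1.57 in female liver. Its ratio of 4.24-fold in the authors' deposited table did not pass the test (adjusted p = 0.0714), and rests on 10 implied reads in male and 3 in female liver. The counting interval placed the male over female ratio between 1.12 and 24.7. The floor ligands of this group were Ccl1, Ccl3, Ccl4, Ccl7, Ccl8, Ccl11, Ccl12 and Ccl26. These include the macrophage inflammatory proteins Ccl3 and Ccl4 and the eotaxins Ccl11 and Ccl26. With 0 implied reads, each could still have had up to 3 reads in a sex.

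Among the other CXC ligands, Cxcl14 and Cxcl13 were called, in opposite directions. Cxcl14, a ligand made by epithelial cells in the resting state (chromosome 13, 56390006 to 56397912, mm9), had a log2 RPKM of 1.20 in male and -0.94 in female liver. Male liver exceeded female liver 4.59-fold in the authors' deposited table (adjusted p = 5.54e-06). No compared member had a larger ratio toward male liver. Its 46 and 13 implied reads allow 2.46-fold to 9.35-fold. Cxcl13, which draws B cells into follicles through Cxcr5, had 0.45 in male and 1.47 in female liver. Female liver exceeded male liver 2.15-fold in the authors' deposited table (adjusted p = 0.016). No reads could be implied for it. Cxcl16, a ligand of Cxcr6 that is also made as a membrane protein, had 1.24 in male and 1.78 in female liver and was not called (adjusted p = 0.0954 in the authors' deposited table). Its counting interval, 1.09-fold to 1.98-fold higher in female liver, left out 1, as did those of Cxcl12, Cxcl1 and Ccl2, which were not called either. Zmynd15 overlaps Cxcl16 on the opposite strand. Cxcl17, a mucosal ligand, lay at the floor.

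The neutrophil-attracting CXC ligands, which share a Glu-Leu-Arg motif and act through Cxcr2, were represented by Cxcl1. Its log2 RPKM was 3.23 in male and 2.78 in female liver (99 and 95 implied reads). Cxcl1 was not called in the authors' deposited table (adjusted p = 0.112). Its neighbour Cxcl2 had 3 implied reads in male and 0 in female liver, and Cxcl3, Cxcl5 and Cxcl15 were at the floor.

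The CC ligands of lymphoid tissue and barrier surfaces had few implied reads. Of 7 in the table, Ccl17, Ccl19, Ccl20, Ccl21a and Ccl27b lay at the floor and Ccl22 had 1 implied read in female liver. Ccl27a, a skin ligand that binds Ccr10, had 6 and 9 implied reads (log2 RPKM 0.10 in male and 0.23 in female liver), and was not called (adjusted p = 1 in the authors' deposited table). Ccl27a lies on the strand opposite to Il11ra1, which overlaps it and stood at 4.29 and 4.26. Ccl19, Ccl21a and the Ccl27 genes have near-identical copies in the mouse genome, so their values are uncertain. The membrane-bound ligand Cx3cl1 had -1.96 in male and -2.94 in female liver (adjusted p = 0.237 in the authors' deposited table).

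**Figure D3:**
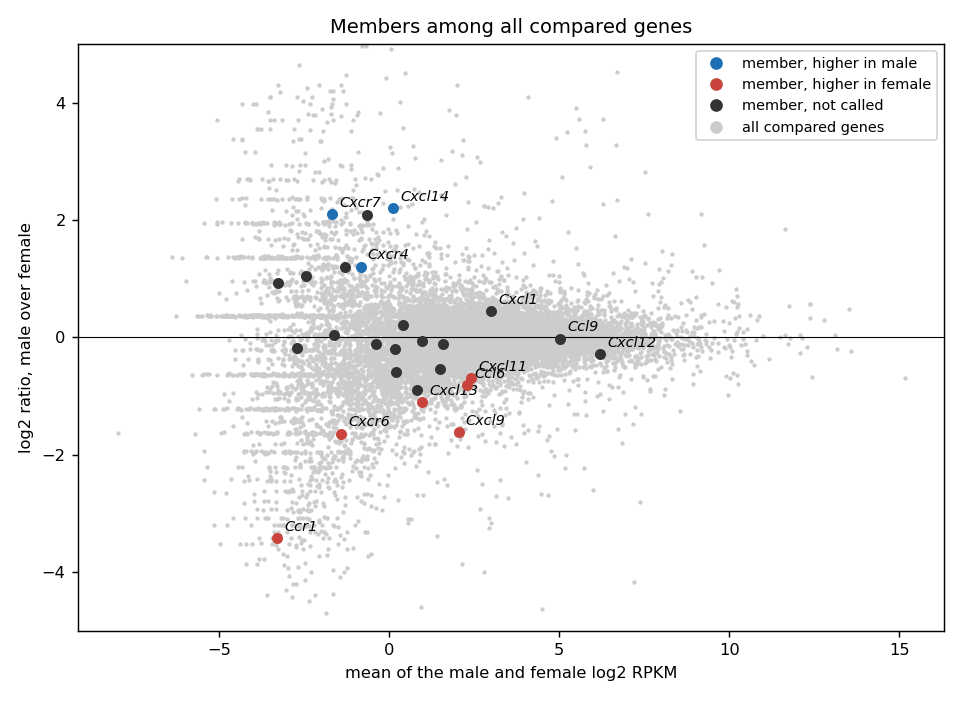
Log2 ratio of male over female liver (vertical axis) against the mean of the male and female log2 RPKM (horizontal axis) for all compared genes with a level (grey) and 26 compared members, with the 9 called members and 3 others named; 45 genes beyond 5 in either direction lie outside the axis. Cxcl9 and Cxcl14 lie apart from 0 at a middle level, whereas Ccr1, Cxcr6, Cxcr4 and Cxcr7 lie at low levels, where the grey points spread more widely.

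Of the 20 receptor genes, 12 were compared, 5 had implied reads in a single sex and 3 lay at the floor. Of the 34 ligand genes, 17 lay at the floor, and of all 21827 genes, 6590. Ccr3, the eotaxin receptor, stood at 0.97 and 0.96 (adjusted p = 0.749 in the authors' deposited table), and Ccr2, the monocyte receptor for Ccl2, at -0.43 and -0.37 (adjusted p = 0.826 in the authors' deposited table). Cx3cr1, carried by monocytes and dendritic cells, had -0.07 in male and 0.49 in female liver (adjusted p = 0.115 in the authors' deposited table).

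Ccr1, the receptor of Ccl5, Ccl6 and Ccl9 on myeloid cells (chromosome 9, 123876959 to 123883525, mm9), was the CC receptor that passed the test. Its log2 RPKM was -4.99 in male and -1.58 in female liver, which corresponds to 0 and 13 implied reads. Taking 3 reads over the male pools as the limit of detection, Ccr1 was at least 3.31-fold higher in female liver (adjusted p = 0.00121 in the authors' deposited table), and the counting interval began at 2.33-fold. The ratio of 10.69-fold in the authors' deposited table depends on the value added to the empty male count. Its neighbour Ccr1l1, a gene related in sequence, had 0 implied reads in male and 4 in female liver. The remaining CC receptors had few reads. Ccr6 and Ccr7, lymphocyte and dendritic cell receptors, had 3 implied reads each in female and 0 in male liver, and Ccr10 had 1 in male and 0 in female liver. Ccr4 and Ccr8 lay at the floor, and Ccr9, a gut-homing receptor, had -2.76 and -2.66 (adjusted p = 0.759 in the authors' deposited table).

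Cxcr6, the receptor of Cxcl16 on liver natural killer T cells and resident lymphocytes (chromosome 9, 123715595 to 123720872, mm9), had a log2 RPKM of -2.09 in male and -0.71 in female liver. Female liver exceeded male liver 3.12-fold in the authors' deposited table (adjusted p = 0.0255). Both values rest on 4 and 16 implied reads, with a counting interval of 0.985-fold to 12.6-fold for female over male. Cxcr6 lies on the strand opposite to Fyco1, which overlaps it at a log2 RPKM of 3.47 and 3.34. Whether reads were assigned by strand was not given in the sources used here.

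Both receptors of Cxcl12 were higher in male liver. Cxcr4, carried by most white blood cells (chromosome 1, 130484776 to 130488876, mm9), had a log2 RPKM of -0.26 in male and -1.41 in female liver, or 16 and 9 implied reads. Male liver exceeded female liver 2.31-fold in the authors' deposited table (adjusted p = 0.0434), whereas the counting interval ran from 0.969-fold to 5.98-fold. Cxcr7, now named Ackr3, takes up Cxcl12 without signalling through G proteins (chromosome 1, 92100578 to 92112863, mm9). Its log2 RPKM was -0.69 in male and -2.66 in female liver, or 20 and 6 implied reads. Male liver exceeded female liver 4.30-fold in the authors' deposited table (adjusted p = 0.0154), and its counting interval ran from 1.69-fold to 13.3-fold. Their ligand Cxcl12 had the higher value in female liver and was not called.

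Cxcr3, the receptor of Cxcl9, Cxcl10 and Cxcl11 on activated T cells and natural killer cells, had 8 implied reads in male and 0 in female liver. Its log2 RPKM was -1.01 in male liver and at the floor, -4.57, in female liver. The authors' deposited table gives Cxcr3 an adjusted p of 0.017 but a ratio of 1, so it was not called here. Ccr1, also without reads in a sex, has a ratio other than 1 in the authors' deposited table. Taking 3 reads over the female pools as the limit of detection, Cxcr3 stood at least 3.49-fold higher in male liver, and the counting interval began at 2.24-fold. Its ligands Cxcl9 and Cxcl11 were higher in female liver.

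The other CXC and XC receptors did not pass the test. Cxcr2, the neutrophil receptor of Cxcl1, had -0.74 in male and -1.86 in female liver (adjusted p = 0.0632 in the authors' deposited table). Cxcr5, the B cell receptor of Cxcl13, had -1.56 in male and -1.68 in female liver, from 9 and 11 implied reads (adjusted p = 0.831 in the authors' deposited table). Xcr1, a receptor of cross-presenting dendritic cells, had -2.84 and -3.71, from 6 and 4 implied reads (adjusted p = 0.731 in the authors' deposited table). Cxcr1 lay at the floor.

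The members sit largely in runs, in which neighbouring members lie at most 1 Mb apart. Called genes stood beside uncalled ones in each of the 3 runs that held any. Whether calls depend on position in a run was not tested. From Ccl5 to Ccl4 on chromosome 11 (83339281 to 83478185, mm9), 5 members span 139 kb, with Ccl6 female-higher, Ccl5 and Ccl9 not called, and Ccl3 and Ccl4 at the floor. A run of receptor genes on chromosome 9 holds Ccr9, Cxcr6, Xcr1, Ccr1, Ccr1l1, Ccr3 and Ccr2, of which Cxcr6 and Ccr1 were female-higher. A further run on chromosome 11, from Ccl2 to Ccl1, had 5 of its 6 members at the floor. The run from Cxcl5 to Cxcl2 on chromosome 5 had 3 of 5 there.

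**Figure D4:**
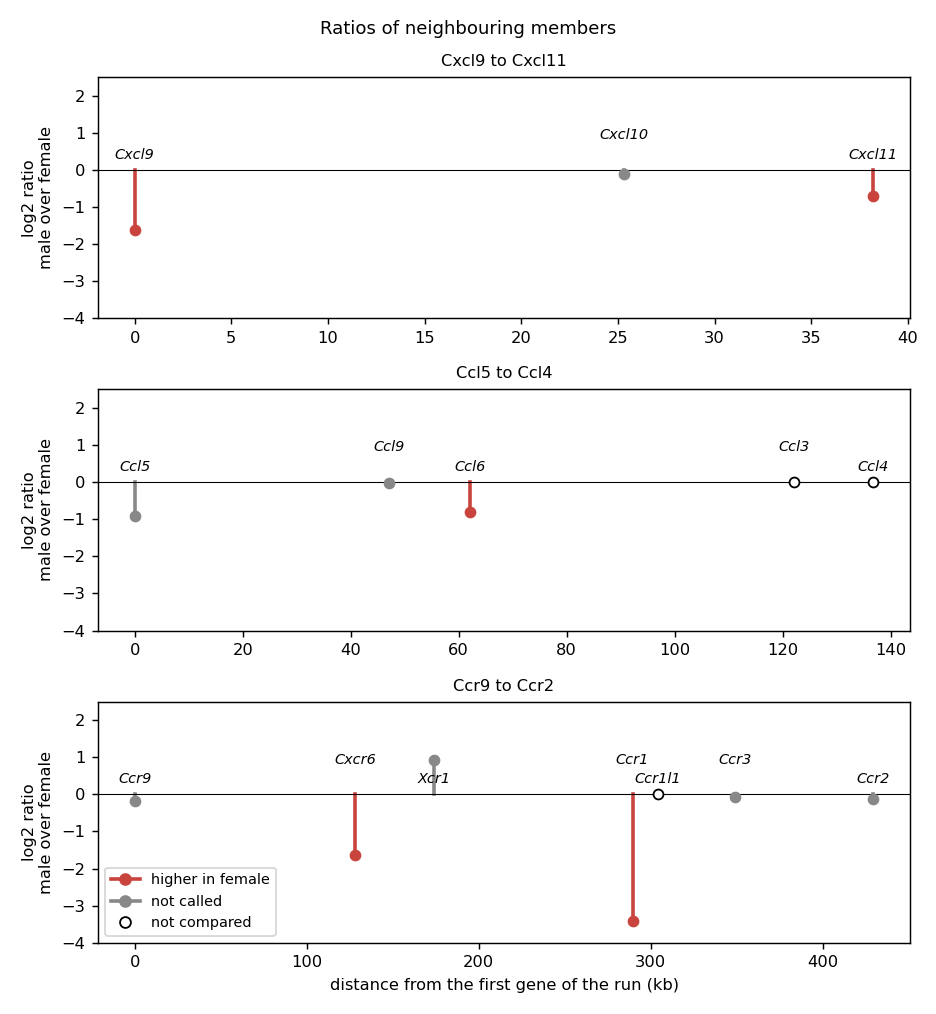
Log2 ratio of male over female liver (vertical axis) against distance from the first gene in kb (horizontal axis) for the 3 runs of neighbouring members that hold called genes; open circles were not compared. In each run, red female-higher genes (Cxcl9 and Cxcl11, Ccl6, Cxcr6 and Ccr1) stand next to members that were not called.

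Genes that work with chemokines were counted from lists. None of 4 compared scavenging and related receptors outside the name rule was called, against 17.4% of all compared genes. All 4 ratios leaned toward female liver (median log2 ratio -0.53). Darc, the erythrocyte and venular chemokine receptor, had the highest level of these receptors (0.94 in male and 1.49 in female liver). Cmklr1, the chemerin receptor, followed (0.25 and 0.68). Related ligands had 0 of 4 called, with Rarres2, the gene of chemerin, at 8.44 and 8.50 and Mif at 3.04 and 2.59. Of their ratios, 3 leaned toward male and 1 toward female liver (median 0.41). Lists of 4 are too short to set against the share over all genes. The platelet chemokines Pf4 and Ppbp were among those not called.

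Of 34 compared signalling genes, 6 were higher in female and 2 in male liver (23.5%, against 17.4% of all compared genes), with a median log2 ratio of -0.23. Rgs16, which shortens G protein signals, stood 7.41-fold above female in male liver (authors' deposited table, adjusted p = 8.2e-11). Gnai1, an inhibitory G protein subunit, was 3.94-fold, the kinase Pak1 2.98-fold and the myeloid kinase Fgr 2.27-fold above male in female liver by the authors' deposited table. Of 22 compared inducers and transcription factors, 2 were called in each direction (18.2%), a share close to that of all compared genes. By the authors' deposited table, Irf8, a myeloid interferon regulatory factor, was higher in female liver by 2.22-fold and Irf1, which acts downstream of interferon gamma, by 1.37-fold. The authors' deposited table has Cebpb (1.48-fold) and Hif1a (1.32-fold) higher in male liver. Ifng itself lay at the floor in both sexes. Tnf and Il6 each had 1 implied read in female and 0 in male liver, and Il1b stood at 1.12 and 1.15. Of 8 compared proteases that cut or release chemokines, the authors' deposited table has Mmp2 (2.69-fold) and Mmp14 (1.89-fold) higher in female liver, and Dpp4 was not called (adjusted p = 0.772).

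Markers of cells that make or receive chemokines were counted in the same way, against 17.4% called over all compared genes. Of 9 Kupffer cell and macrophage markers, 5 were higher in female and none in male liver, with a median log2 ratio of -0.41. Their summed RPKM was 155 in male and 198 in female liver. By the authors' deposited table, Marco, a scavenger receptor, exceeded its male level 3.21-fold and Clec4f, a Kupffer cell lectin, 1.33-fold. Of 10 monocyte and dendritic cell markers, 4 were higher in female liver, among them Itgam (2.60-fold in the authors' deposited table). The summed RPKM was 78.2 in male and 75.9 in female liver. Cd74, which was not called, had the highest level of these markers (log2 RPKM 5.36 in male and 4.99 in female liver). Of the 10 ratios, 8 leaned toward the female and 2 toward the male side (list median -0.61 in log2). Of 8 stellate cell and fibroblast markers, 5 were higher in female liver, with a summed RPKM of 101 and 144. The called markers of these 3 lists were higher in the same sex as Cxcl9, Cxcl11, Cxcl13, Ccl6, Ccr1 and Cxcr6, although the monocyte and dendritic cell sum was not, and their part in those results was not tested.

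Lymphocyte markers were low apart from Sdc1. Of 10 compared T and natural killer cell markers, Nkg7 was higher in female liver (0 and 21 implied reads, at least 5.35-fold) and Cd4, which some dendritic cells also carry, was higher in male liver (3.20-fold by the authors' deposited table). The T cell receptor subunits Cd3d (-1.31 and -0.70), Cd3e (-1.69 and -1.23) and Cd3g (-0.94 and -0.33) were not called. The summed RPKM of the list was 4.58 in male and 6.66 in female liver. Of 8 B and plasma cell markers, Cd22 and Sdc1, the latter also a hepatocyte gene, were higher in female liver. None of the 5 compared neutrophil and 4 compared platelet markers was called. The neutrophil markers summed to 6.73 and 9.57, with S100a9 the highest (log2 RPKM 1.71 and 2.55) and Mpo and Camp at the floor. Of the 5 compared, 3 had ratios toward male liver, and their median log2 ratio was 0.67. Of 7 sinusoidal endothelial markers, Pecam1 was higher in female liver (143 and 160 summed), and of 6 hepatocyte markers Alb was higher in female and Apoa1 in male liver. Of 6 cholangiocyte markers, Sox9 was higher in female and Spp1 in male liver (46.5 and 31.5 summed). Spp1, at a log2 RPKM of 5.46 and 4.80, dominated both sums. By contrast, 4 of the 6 ratios leaned toward the female side (list median -0.44 in log2). Of 5 compared erythroid markers, Alas2 was higher in male liver. The globin genes Hba-a1 (1.3-fold) and Hbb-b1 (1.15-fold), toward male liver, and Hbb-b2 (1.14-fold), toward female liver, were not called in the authors' deposited table. The part of these cell types in the ratios of Cxcr3, Cxcr4, Cxcr7 and Cxcl14 was not tested.

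**Figure D5:**
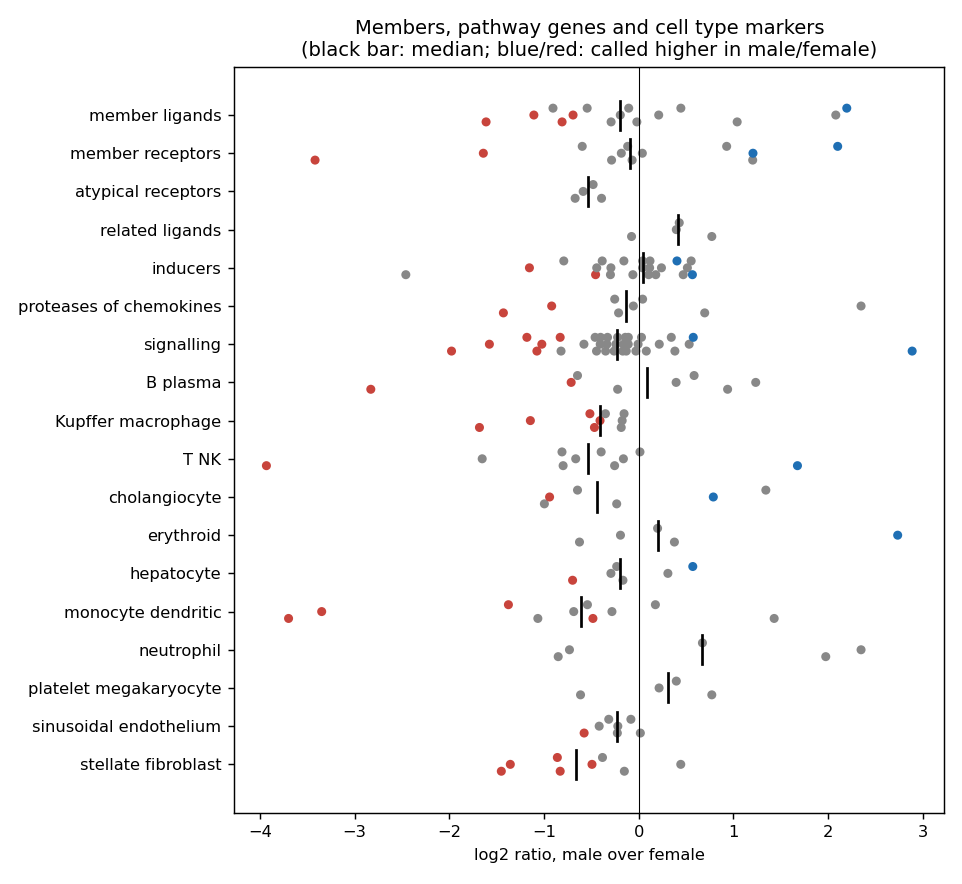
Log2 ratio of male over female liver (horizontal axis) of compared genes, 1 point per gene, for the member ligands and receptors, the pathway lists and the cell type markers; black bars are medians. Kupffer cell markers all lie below 0 with 5 of 9 called, while member ligands and receptors hold called genes on both sides of 0.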

How the data were processed

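Poly-A-enriched, strand-specific RNA of 4 pools (2 per sex) was sequenced, per the labels' protocols. Bowtie, edgeR and mm9 are named without versions or roles in the submitters' processing notes; the counting rule was not given in the sources used here. Per the file headers, the authors deposited log2 RPKM per sex, a normalized log2 ratio, a linear ratio, a signed fold change (a score, minus where female liver was higher), an adjusted p-value and a flag for a log2 RPKM of at least 1. The pools are not separated, so the planned count test and leaving out pools could not be run, and the authors' adjusted p under 0.05 was used. Whether the authors' p-values measure the spread between pools was not given in the sources used here. Genes at the floor carry an authors' adjusted p of 0.026, smaller than the 0.0434 of the called Cxcr4.

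Of 21827 genes, 6590 lay at the floor (adjusted p of 0.026, disregarded), 1460 had reads in 1 sex with the ratio set to 1 (within 0.3% of a whole multiple of the floor), 14 had no level and 13763 were compared. Depth came from 1058 olfactory receptor genes at the floor. Reads came from GENCODE vM21 transcript lengths matched by RefSeq accession (another build, used for lengths only) or from the floor; of 4668 floor genes with a length, 74.2% lay within 2% of the implied one. Of 27 compared members, 22 had implied reads. Promoters matched for 20 by symbol or accession. Python 3.11.15, pandas 2.3.3 and scipy 1.17.1 were used, and the read recovery was tested on simulated data. The simulation took the transcript lengths as right, so it could not show errors from wrong lengths. Named genes were all called members, compared members reaching a log2 RPKM of 1, and up to 4 called genes per list; others were named after their values were seen. Members and lists were chosen with earlier results of these data known. List members that are also chemokine genes by the name rule were left out of the lists. A member is not reported here by name and is left out of plots that show members singly, but is included in counts and medians. Coordinates are those of the table (mm9, start made 1-based).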

Additional observations from a re-analysis of the deposited data

How the results depend on the processing

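With the threshold lowered to 0.01, 4 members were called (3 female-higher, Cxcl9, Ccl6 and Ccr1, and 1 male-higher, Cxcl14), against 10.2% of all compared genes. Restricting to liver-expressed members (log2 RPKM of 1 or more in a sex) left 5 calls, 1 of them male-higher. With the added requirement, chosen after seeing the data, that the counting interval leave out 1, 5 calls were left, 3 of them female-higher; Cxcl11 and Cxcl13 drop out because no reads were implied for them, and Cxcr4 and Cxcr6 because their intervals include 1. Requiring at least 10 implied reads in the higher sex, also chosen after seeing the data, left 7 calls, since no reads were implied for Cxcl11 and Cxcl13. All 7 called members with implied reads passed. For neither of these added requirements was the share over all compared genes computed. A minimum of 1.5-fold left all 9, against 13.5% of all compared genes. The median log2 ratio of the members was -0.12 as reported, -0.062 when levels were simply subtracted, -0.0252 by log2(RPKM + 1) and -0.42 over liver-expressed members. No called member changed direction under the plain difference or log2(RPKM + 1); the uncalled Cxcl10 and Ccr3 changed sign. No paired analysis was possible because the table holds 1 value per sex, and for the same reason no pool could be left out and the count tests were not run. At this depth, 20 of the 54 members had no implied read in either sex, 17 of 34 ligands and 3 of 20 receptors, against 6590 of all 21827 genes.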
